A study of Rattus norvegicus and Mus musculus with 22 samples.

Results

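Wild-type (WT) rat lung of the Sugen-hypoxia model of pulmonary hypertension was compared between day 56 and day 7. The members were the 3 WT whole-lung libraries labelled day 56 and the 3 labelled day 7, chosen by their labels, which makes 6 of the 22 libraries of the series. The other libraries came from lungs of Sugen-hypoxia rats lacking Il6 (IL6KO; 3 at day 56 and 3 at day 7), from rat lung CD4-positive cells and from mouse spleen. All 12 rat whole-lung libraries came from animals given Sugen-hypoxia, so no untreated lung was set beside them here, and strain, age, the event from which the days count and the oxygen at collection were not given in the sources used here. Nothing in the labels says that the 3 libraries of a group came from separate rats, so the p-values measure only the spread between these samples, which may be technical.

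Sugen is an inhibitor of the VEGF receptor, and given with low oxygen it injures lung endothelium and starts remodelling of the pulmonary arteries. In the rat model the vessel wall first thickens through dividing cells and new matrix, and vascular lesions with inflammatory cells around them form later, after the return to normal oxygen. In the mature lung, cell division is rare, endothelial cells of arteries and capillaries carry distinct sets of genes, and resident lymphocytes and macrophages surround the airways and vessels.

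The 2 days were deposited as separate count tables, so day and table cannot be told apart. Each table lists 22081 gene symbols, of which 20230 stand in both. CPM are counts scaled to library size. A symbol was dropped where one table had it over 10 CPM in its 6 libraries, both genotypes, and the other had it below 1 CPM throughout, which removed 57 symbols (24 high at day 56 and 33 high at day 7). Hprt1 was just inside that rule, with at most 0.959 CPM in the day 56 table, and Cycs just outside it, with at most 1.00 CPM there. Among the 24 were the ribosomal protein genes Rpl8, Rpl35a, Rpl38 and Rps29, and 16 of the 24 had 0 counts in all 6 day 7 libraries. Of those 16, 13 also had 0 counts in the 4 day 7 CD4 libraries, a different cell source counted in a table of its own. After the filter on low counts 13808 genes were tested.

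Total counts per WT library ran from 14415060 to 22961232 at day 56 and from 15011692 to 23590070 at day 7, and 3 counts in a library, the bound for a gene with 0, corresponded to at most 0.218 CPM in either group. Counts in symbols of only 1 table made up 5.11% to 5.56% of a WT day 56 library and 6.17% to 6.26% of a WT day 7 library. On a principal component analysis of the 6 WT libraries the first component, with 61.9% of the variance, separated the days. The second, with 17.2%, set day 56 library 3 (46.4) apart from day 56 libraries 1 and 2 (-22.4 and -14.6) and from the day 7 libraries (-6.48 to -1.39). Among genes averaging at least 5 CPM, library 3 stood over 1 log2 unit above both other day 56 libraries for 114 genes and below both for 102, against 17 and 40 for library 1 and 7 and 16 for library 2. The lung label was checked on Sftpc, the gene of surfactant protein C made by alveolar type 2 cells, had 12821, 14337 and 16031 CPM at day 56 and 12264, 12019 and 13869 CPM at day 7. Both Y-linked genes tested, Kdm5d and Eif2s3y, had counts in all 6 libraries, at 57.4 to 85.4 CPM at day 56 and 60.8 to 88.2 CPM at day 7.

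In the results below, a level is a TMM-scaled CPM, values of a group run from library 1 to library 3, a change is the log2 fold change of day 56 over day 7 with its standard error (SE), and calls are genes whose adjusted p was below 0.05 in the quasi-likelihood test of edgeR, adjusted by Benjamini-Hochberg across the 13808 genes. Of these, 1962 were called (14.2%), 889 higher (6.44%) and 1073 lower (7.77%) at day 56, and the median change over all genes was 0.01. Of the called genes 707 had a log2 change of 1 or more in size. The count was 3594 when day 56 library 3 was left out, and without day 56 library 1, day 7 library 2 or day 7 library 3 it was 1238, 1155 and 1228. The members of 53 gene lists, 1010 genes in all with 856 tested, are described by their counts of calls and their medians, to be read against these shares and this median. In whole lung, fewer cells of a type and less RNA per cell cannot be told apart.

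Genes of cell division were lower at day 56. Of 23 tested mitosis genes 22 fell and 0 rose (median -1.97), and of 26 DNA replication genes 20 fell and 1 rose (median -0.69). The exceptions were Aurkb, the gene of a mitotic kinase, which was not called (0.28, adjusted p = 0.738) and ran from 20.1 to 103.6 CPM within day 56, and Gins2, a helicase subunit, which rose by 0.51 (adjusted p = 0.00657). Both were named after their values were seen. Aurkb was not among the 16 mitosis genes whose neighbouring rows were the same in both tables, a check described below. All 16 of those were lower. The mitosis count was 22 whichever WT library was left out, whereas the replication count ran from 13 (without day 7 library 3) to 23 (without day 56 library 3).

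Top2a, which encodes the topoisomerase that untangles chromosomes before they separate, had 20.4, 18.6 and 19.1 CPM at day 56 against 89.3, 84.5 and 86.1 CPM at day 7. The libraries of a day lay close together and far from those of the other day, and Top2a fell by 2.16 (SE 0.13, adjusted p = 6.9e-07). Ccnb1, the cyclin that drives entry into mitosis, had 3.96, 3.38 and 4.51 CPM at day 56 and 17.0, 17.6 and 18.9 CPM at day 7 (-2.18, SE 0.14, adjusted p = 7.97e-07). Its partner kinase gene Cdk1 had 10.1, 10.8 and 8.44 CPM at day 56 and 39.6, 40.6 and 47.6 CPM at day 7 (-2.11, SE 0.14, adjusted p = 1.48e-06). For neither gene did the days overlap. Prc1, whose product bundles microtubules of the late spindle, had 23.8, 26.4 and 26.8 CPM at day 56 and 82.1, 79.9 and 85.5 CPM at day 7 (-1.68, SE 0.11, adjusted p = 9.88e-07). Mki67, the gene of the Ki-67 protein of cycling nuclei, had 28.0, 28.1 and 35.1 CPM at day 56 and 98.4, 91.9 and 99.0 CPM at day 7 (adjusted p = 1.1e-05).

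Since these genes moved together, the 100 bases before the RefSeq start of the 4 mitosis genes with the smallest p are shown for the elements that cell-cycle promoters are known for. Capitals mark CCAAT boxes (CCAAT or, on the other strand, ATTGG) and the cell cycle homology element (TTTGAA or TTCAAA), which do not overlap each other, and the coordinates are those of the GRCr8 rat assembly.
Top2a (chr10:84473094-84473193, minus strand): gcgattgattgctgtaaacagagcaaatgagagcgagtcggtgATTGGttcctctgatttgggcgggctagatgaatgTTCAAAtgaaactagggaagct
Ccnb1 (chr2:33655226-33655325, minus strand): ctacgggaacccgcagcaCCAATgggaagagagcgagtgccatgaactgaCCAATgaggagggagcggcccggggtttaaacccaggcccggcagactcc
Prc1 (chr1:143659381-143659480, plus strand): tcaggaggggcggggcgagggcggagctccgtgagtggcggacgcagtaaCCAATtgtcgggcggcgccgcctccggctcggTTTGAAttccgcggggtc
Cdk1 (chr20:19265193-19265292, plus strand): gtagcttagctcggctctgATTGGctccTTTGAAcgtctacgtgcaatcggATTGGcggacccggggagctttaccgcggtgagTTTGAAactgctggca
Counted in bases before the start, the cell cycle element nearest the start began at 22 in Top2a, 18 in Prc1 and 16 in Cdk1, and a CCAAT box at 57, 50 and 49 in the same 3 genes. Ccnb1 held CCAAT boxes at 82 and 50, and TTTGAA was not in its window on either strand. Over the 250 bases before the start, CCAAT was found in 15 of the 18 mitosis genes with a RefSeq promoter (83.3%), 13 of 22 replication genes (59.1%) and 34.3% of all 27457 promoters. TTTGAA was found in 7 of the 18 mitosis genes (38.9%), 1 of the 22 replication genes and 16.0% of all promoters. The E2F-type motifs TTTCGCGC, TTTGGCGC, TTTCCCGC and TTTGCCGC were found, as any of the 4 on either strand, in 7 of the 22 replication genes (31.8%), 1 of the 18 mitosis genes and 1.81% of all promoters. Over the 10485 tested genes with a RefSeq promoter, the background closer to these lists, the shares were 35.2% for CCAAT, 10.3% for TTTGAA and 3.05% for the E2F-type motifs. These matches describe the sequence and are not measured sites.

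Of the replication genes, Rrm2, the regulated subunit of the enzyme that makes deoxyribonucleotides, had 2.09, 2.73 and 3.42 CPM at day 56 against 14.3, 14.8 and 17.4 CPM at day 7. It fell by 2.50 (SE 0.22, adjusted p = 1.23e-05), the largest change of the replication list. Tk1, a thymidine kinase of S phase, had 12.9, 10.6 and 13.7 CPM at day 56 and 36.4, 39.9 and 50.1 CPM at day 7 (-1.77, SE 0.15). Pole, the catalytic subunit of DNA polymerase epsilon, had 6.82, 6.95 and 7.86 CPM at day 56 and 16.3, 15.8 and 18.9 CPM at day 7 (-1.24, SE 0.14), and Cdc6, which loads the replicative helicase, changed by -1.90 (SE 0.24, adjusted p = 0.000236). Every one of these genes was lower in each day 56 library than in each day 7 library.

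**Figure D1:**
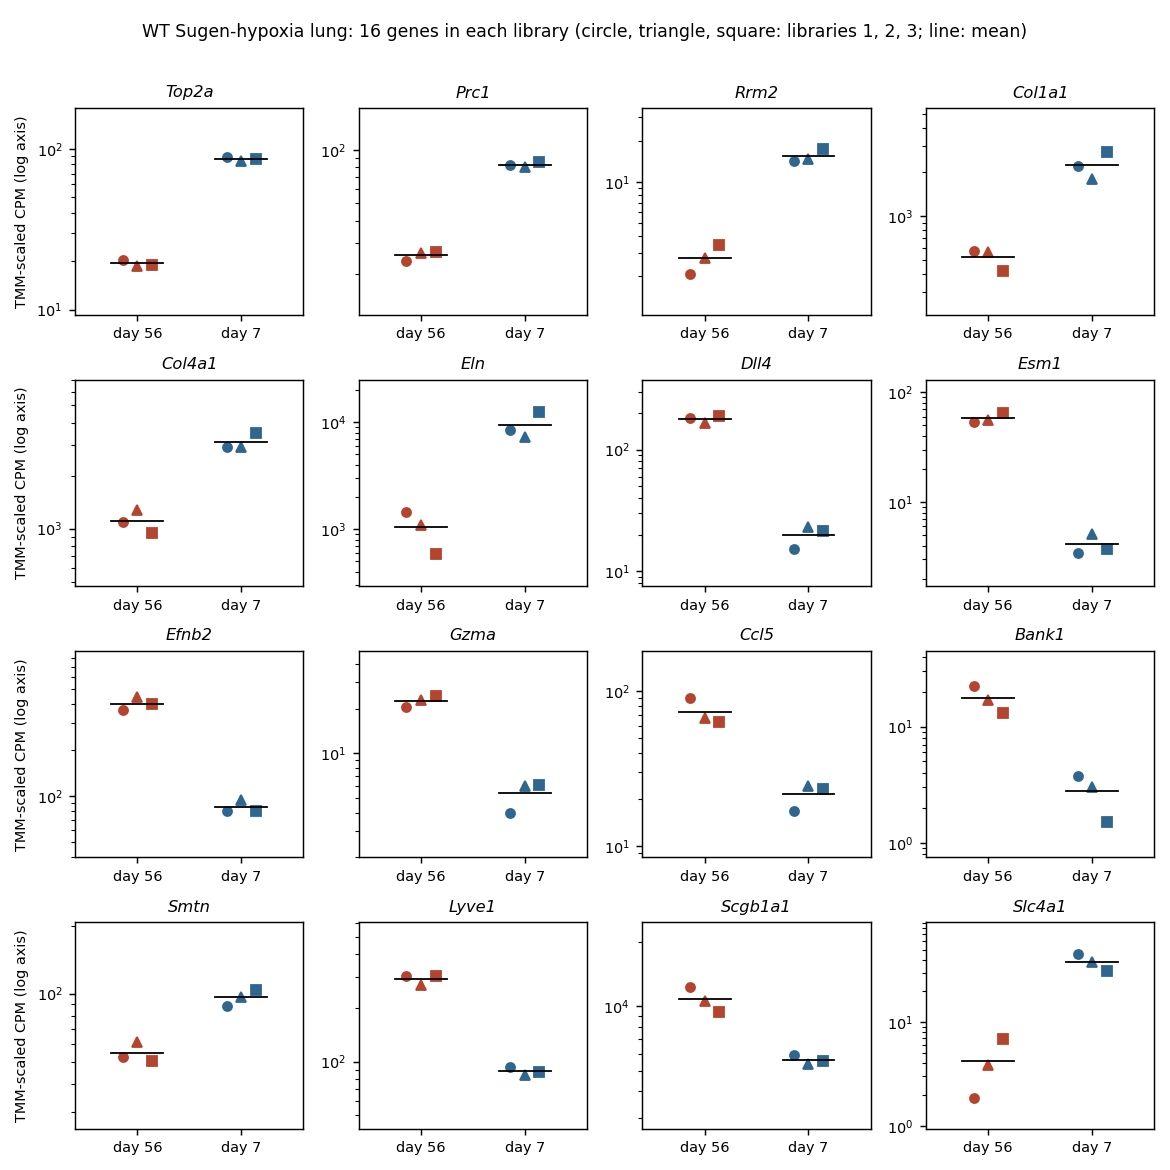
Level of 16 genes in each WT library, on log axes in TMM-scaled CPM, with day 56 left and day 7 right; circles, triangles and squares are libraries 1, 2 and 3 and lines are group means. Top2a, Col1a1, Eln and Slc4a1 are lower and Dll4, Esm1, Gzma and Scgb1a1 higher in each day 56 library than in any day 7 library.

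Extracellular matrix genes were lower at day 56 as a group. Of 20 fibrillar and interstitial matrix genes 18 fell and 0 rose (median -1.23), and of 14 basement membrane genes 13 fell and 0 rose (median -1.07). Enzymes that process and crosslink collagen had 12 of 18 lower and 0 higher (median -0.60). Leaving out any 1 WT library gave 16 to 18, 11 to 13 and 9 to 13 lower members in these lists.

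Eln, the gene of elastin, the elastic protein of arteries and alveolar walls, had 1440.0, 1096 and 589 CPM at day 56 against 8417, 7337 and 12476 CPM at day 7. Day 56 library 3 was the lowest of all 6 and day 7 library 3 the highest, and Eln fell by 3.18 (SE 0.35, adjusted p = 0.000135). Col1a1, a chain of type I collagen, had 578, 563 and 420.0 CPM at day 56 against 2196, 1797 and 2732 CPM at day 7 (-2.11, SE 0.17, adjusted p = 6.44e-06). Col3a1, the type III collagen gene, had 1938, 1730.4 and 1591 CPM at day 56 and 4413, 4394 and 5277 CPM at day 7 (-1.42, SE 0.10, adjusted p = 2.82e-06). Both collagens were lower in each day 56 library than in each day 7 library. Sparc, a collagen-binding protein of remodelling tissue, fell by 1.35 (SE 0.09, adjusted p = 9.88e-07), and Fbn1, the fibrillin of elastic microfibrils, by 1.51 (SE 0.14, adjusted p = 1.27e-05). The 2 fibrillar matrix genes that did not pass were Dcn (-0.28), which encodes decorin, and Fbln1 (-0.03), both named after their values were seen.

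In the basement membrane, the sheet under endothelium and epithelium, Col4a1 and Col4a2 encode the collagen chains found in most tissues and lie head to head on the genome. Col4a1 had 1088, 1270.5 and 945 CPM at day 56 against 2920.2, 2907 and 3500.3 CPM at day 7 (-1.50, SE 0.12), and Col4a2 had 446, 543 and 458 CPM at day 56 against 1303, 1279 and 1539 CPM at day 7 (-1.51, SE 0.11). The laminin chain gene Lamc1 fell by 1.27 (SE 0.12, adjusted p = 1.69e-05). Col4a3, a chain of alveolar basement membrane made by type 1 cells, had 177, 212 and 260.0 CPM at day 56 and 519.6, 402 and 450.4 CPM at day 7 (-1.08, adjusted p = 0.000451). Loxl2, an enzyme that crosslinks collagen, had 14.5, 12.4 and 19.9 CPM at day 56 and 60.3, 56.0 and 65.9 CPM at day 7. It showed the largest change of the crosslinking list (-1.97, SE 0.14, adjusted p = 2.7e-06), ahead of the procollagen protease Adamts2 (-1.35, SE 0.12) and the lysyl hydroxylase Plod2 (-1.27, SE 0.13). Adam12, a metalloprotease of activated mesenchymal cells, and Fndc1 were among the 15 largest falls with unchanged rows around them, at -2.49 (SE 0.22) and -2.50 (SE 0.26).

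Contractile and mural cell genes were lower by smaller amounts. Of 18 smooth muscle genes 9 fell and 0 rose (median -0.49; 6 to 11 fell with 1 WT library left out), and of 12 pericyte genes 6 fell (median -0.39; 3 to 5, with 3 without day 56 library 2 or 3 or day 7 library 2 or 3). Acta2, smooth muscle actin, had 393, 295 and 389.9 CPM at day 56 against 608, 608 and 662 CPM at day 7, with no overlap (-0.80, SE 0.13, adjusted p = 0.00152). Smtn, smoothelin of contractile muscle, had 52.7, 61.2 and 50.5 CPM at day 56 and 88.2, 97.1 and 103 CPM at day 7 (-0.81, SE 0.10, adjusted p = 0.000177). Myl9, the myosin light chain of smooth muscle, fell by 0.81 (adjusted p = 0.000346) and the pericyte proteoglycan gene Cspg4 by 0.56 (adjusted p = 0.00388). General fibroblast markers had 2 of 16 lower and 0 higher (median -0.12; 3 lower and 2 higher without day 56 library 3, and 1 lower without any of the other 5 WT libraries), among them Col14a1 (-0.63, SE 0.11).

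**Figure D2:**
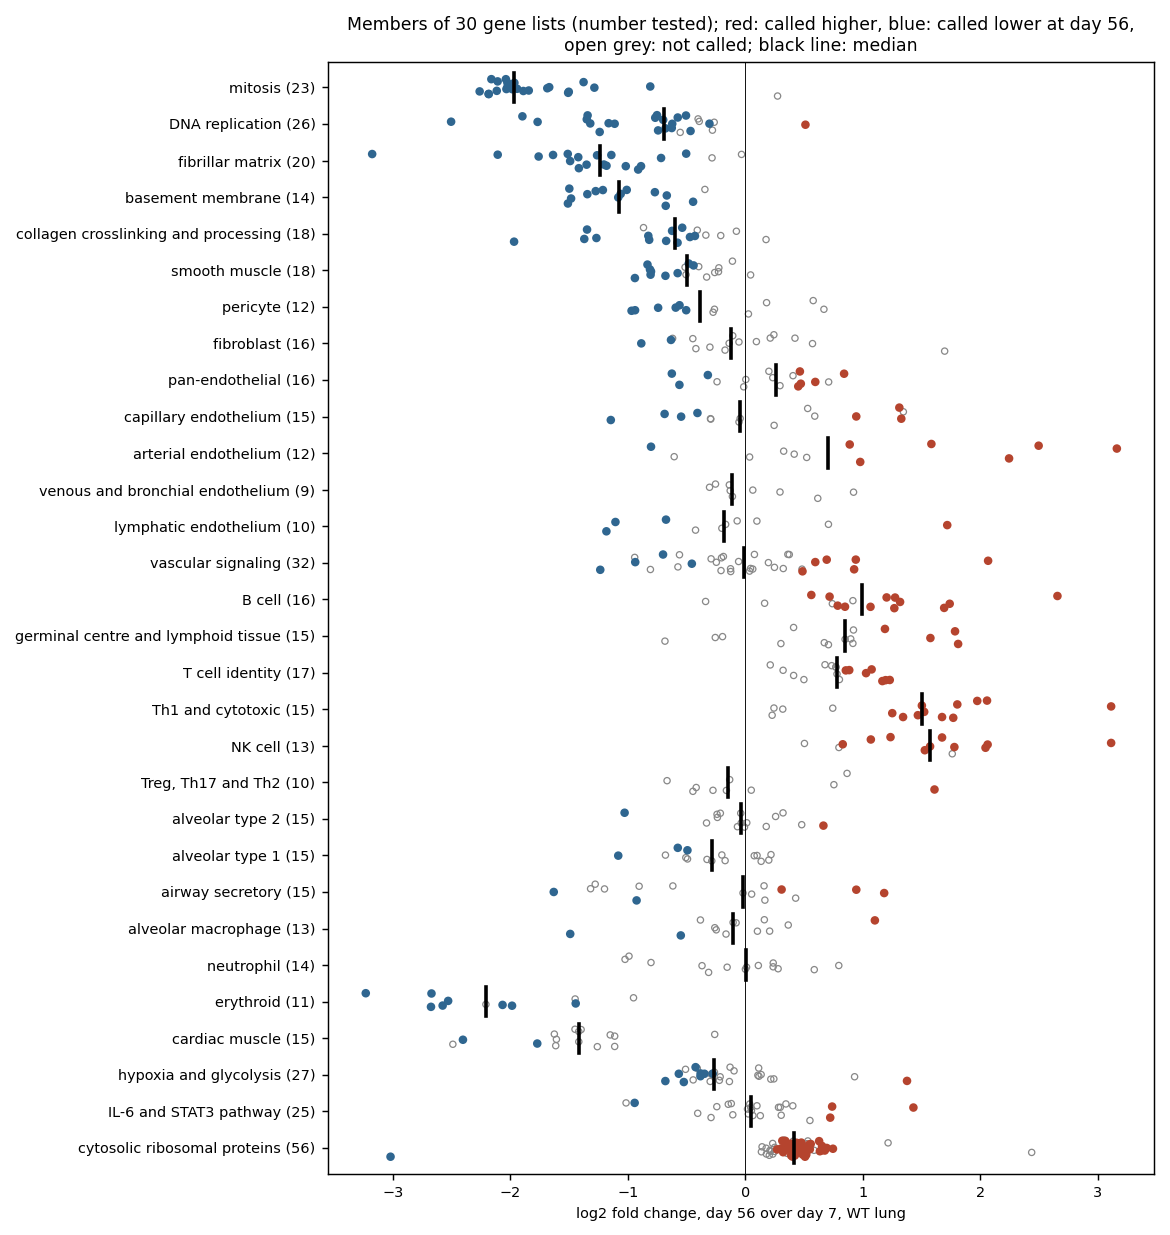
Log2 fold change of day 56 over day 7 for each tested member of 30 lists; red points were called higher, blue points called lower and open grey points not called, and black lines are list medians. Mitosis members other than Aurkb and all fibrillar matrix and erythroid members lie left of 0, arterial, B cell, cytotoxic and NK cell members mostly right of it, and epithelial and macrophage members on both sides.

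Endothelial genes did not move as 1 block. Of 12 arterial endothelial genes 6 rose and 1 fell (median 0.71), the same 6 and 1 in number whichever WT library was left out. Of 16 genes shared by all endothelium 5 rose and 3 fell (median 0.27; 2 to 4 higher and 1 to 2 lower with 1 WT library left out, with 3 higher without day 56 library 1 or day 7 library 3, 2 higher without day 7 library 2, and 1 lower without day 7 library 2 or 3), of 15 capillary genes 3 rose and 4 fell (median -0.04; 5 higher without day 56 library 3, and 2 lower without day 56 library 2 or day 7 library 1 or 2), and of 9 venous and bronchial genes none was called by edgeR, with 1 at most when a WT library was left out. Summed arterial levels were 1513, 1673 and 1455 CPM at day 56 and 827, 853 and 907 CPM at day 7, and summed pan-endothelial levels 6561, 7057 and 6392 CPM at day 56 and 6133, 5829.5 and 6280.0 CPM at day 7. Pecam1 is not a symbol of both tables and was not analysed here.

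Notch signaling between neighbouring endothelial cells holds arterial identity, with Dll4 as its main ligand there and Hey1 as a target gene. Dll4 had 181, 166 and 188 CPM at day 56 against 15.1, 22.9 and 21.4 CPM at day 7. Each day 56 library stood above every day 7 library, and Dll4 rose by 3.16 (SE 0.21, adjusted p = 1.93e-06). Hey1 had 17.9, 30.8 and 21.0 CPM at day 56 and 4.85, 3.23 and 4.42 CPM at day 7 (2.50, SE 0.30, adjusted p = 0.000146). Efnb2, the ephrin ligand that marks arteries, had 366, 444 and 398 CPM at day 56 and 80.0, 94.9 and 79.7 CPM at day 7 (2.25, SE 0.14, adjusted p = 9.72e-07). Neither gene overlapped between the days. Sema3g, an arterial semaphorin, had 381, 373 and 346 CPM at day 56 and 119, 110.1 and 138 CPM at day 7 (1.58, SE 0.16). Esm1, a secreted proteoglycan known as a target of VEGF in sprouting tip cells, had 53.8, 56.2 and 65.1 CPM at day 56 against 3.42, 5.14 and 3.74 CPM at day 7 (3.81, SE 0.39, adjusted p = 8.67e-05).

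Other vessel genes went both ways. Plvap, which forms the diaphragms of fenestrae and caveolae, had 1676, 1782 and 1168 CPM at day 56 and 608, 594 and 663 CPM at day 7 (1.31, SE 0.17, adjusted p = 0.000294). Npr3, the clearance receptor of natriuretic peptides, rose by 2.16 (SE 0.41), with 33.5, 80.6 and 67.6 CPM at day 56 and 13.5, 10.9 and 16.5 CPM at day 7. In contrast Aplnr, the apelin receptor of angiogenic capillary cells, had 184, 151 and 112 CPM at day 56 and 342, 320.4 and 327 CPM at day 7 (-1.14, SE 0.25, adjusted p = 0.0115), and Vegfc, the growth factor of lymphatic vessels, fell by 1.22 (SE 0.16, adjusted p = 0.000274). The lymphatic list split: Lyve1, a hyaluronan receptor of lymphatic vessels and of some macrophages, had 302, 271 and 301 CPM at day 56 and 93.5, 84.0 and 87.9 CPM at day 7 (1.72, SE 0.22), while Prox1, the transcription factor that defines lymphatic endothelium, fell by 1.18 (SE 0.20, adjusted p = 0.00182) and Reln by 1.10 (SE 0.14).

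Signaling genes of the BMP and TGF-beta pathways, whose balance is altered in pulmonary arterial hypertension, had 6 higher and 4 lower of 32 (median -0.01; 3 to 7 higher and 3 to 8 lower with 1 WT library left out, 3 higher without day 7 library 2 and 8 lower without day 56 library 3). Smad6, an inhibitor induced by BMP signals, had 85.7, 131 and 59.1 CPM at day 56 against 20.8, 20.5 and 24.5 CPM at day 7 (2.07, SE 0.25, adjusted p = 0.000216). Over the 23 members whose neighbouring rows were the same in both tables, a check described below, 4 were higher and 1, Tgfb2, was lower. The TGF-beta ligand Tgfb2 had 86.1, 74.2 and 78.4 CPM at day 56 and 177, 144 and 136 CPM at day 7 (-0.94, SE 0.13), the receptor Tgfbr2 fell by 0.70 (SE 0.08) and the latency protein Ltbp2 by 1.23 (SE 0.13), both with 1 of the 4 rows different. Bmpr2, the receptor gene mutated in heritable disease, had 164, 146 and 264 CPM at day 56 and 182, 153 and 148 CPM at day 7 and was not called (0.25, SE 0.18, adjusted p = 0.384); library 3 was the high one, and without it the change was -0.054. Of 19 genes of endothelin, nitric oxide, prostacyclin and related pathways 2 rose and 2 fell, with Ace, angiotensin-converting enzyme, higher by 0.43 (SE 0.09) and the endothelin receptor Ednrb lower by 0.41 on the log2 scale (SE 0.09).

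Lymphocyte genes, and above all those of cytotoxic cells, were higher at day 56. Th1 and cytotoxic genes had 11 of 15 higher and 0 lower (median 1.50), NK cell genes 10 of 13 and 0 (median 1.57), B cell genes 12 of 16 and 0 (median 0.99), and T cell identity genes 7 of 17 and 0 (median 0.78). With 1 WT library left out the rises numbered 10 to 11, 8 to 9, 8 to 13 and 4 to 7; the 4 for T cell identity came without day 56 library 1 or day 7 library 1. Rises of these 4 lists had been seen in these libraries before, so their direction is no independent support. Genes of Treg, Th17 and Th2 cells had 1 of 10 tested higher and 0 lower (median -0.15). The single one was Tnfrsf18, which encodes the costimulatory receptor GITR (1.61, SE 0.30). The list holds 20 genes, and Il10, Il17a, Il4, Il5 and Il13 were among those with too few counts to be tested. At a mean of at least 5 CPM 3 members were tested and 0 called, so these counts cannot show whether such cells changed.

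Gzma, a serine protease of killer cell granules, had 20.5, 22.8 and 24.4 CPM at day 56 against 3.99, 6.01 and 6.12 CPM at day 7. No library of one day reached the range of the other, and Gzma rose by 2.06 (SE 0.22, adjusted p = 5.59e-05). Prf1, the pore-forming protein perforin, had 71.0, 76.8 and 81.5 CPM at day 56 and 18.1, 27.3 and 26.1 CPM at day 7 (1.68, SE 0.20, adjusted p = 0.000152). Ccl5, a chemokine of activated T and NK cells, had 90.9, 67.3 and 62.9 CPM at day 56 and 16.9, 24.4 and 23.4 CPM at day 7 (1.77, SE 0.19, adjusted p = 5.9e-05). Day 7 library 1 was the lowest of the 6 for each of these 3 genes. Il2rb, the receptor chain for IL-2 and IL-15, had 64.3, 53.3 and 59.0 CPM at day 56 and 15.3, 22.9 and 22.8 CPM at day 7 (1.53, SE 0.17), and Ncr1, an activating receptor of NK cells, rose by 1.78 (SE 0.24). Gzmb, another granzyme, changed most (3.11, SE 0.37), but none of the 4 rows around it was the same in both tables, a point taken up below.

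For B cells, Bank1, a scaffold protein of B cell receptor signaling, had 22.3, 16.9 and 13.2 CPM at day 56 against 3.78, 3.00 and 1.50 CPM at day 7 (2.66, SE 0.38, adjusted p = 0.000668). Ms4a1, the gene of CD20, had 7.70, 6.35 and 7.93 CPM at day 56 and 1.71, 2.41 and 2.38 CPM at day 7 (1.74, SE 0.30). In both genes every day 56 library was above every day 7 library. Jchain, the joining chain of secreted IgA and IgM, had 35.2, 21.3 and 26.8 CPM at day 56 and 7.99, 8.47 and 13.9 CPM at day 7 (1.46, SE 0.31, adjusted p = 0.00895). T cell receptor signaling genes rose too: Cd247, the zeta chain, by 1.19 (SE 0.27), Lat by 1.17 (SE 0.23) and Cd8b by 1.23 (SE 0.28). Germinal centre and lymphoid tissue genes had 4 of 15 higher (median 0.85), a count that was 0 without day 56 library 1, day 7 library 1 or day 7 library 3 and 7 without day 56 library 3. Clec9a, a receptor of cross-presenting dendritic cells, rose by 1.11 (SE 0.16), and of 12 dendritic cell genes 3 rose and 1 fell (1 higher and 0 lower without day 7 library 1, 4 higher and 2 lower without day 56 library 3).

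Myeloid genes did not move in 1 direction. Alveolar macrophage genes had 1 of 13 higher and 2 lower (median -0.10), interstitial macrophage and monocyte genes 2 of 20 higher and 0 lower (median -0.20). Without day 7 library 1 each of these lists had 3 lower, and DESeq2 called 3 lower in the alveolar and 4 lower in the interstitial list. Of 14 neutrophil genes edgeR called 0, with 2 lower without day 56 library 3 or day 7 library 1 and 2 lower by DESeq2. Fabp4, a fatty acid binding protein of macrophages, fat and capillaries, had 11.3, 11.7 and 10.3 CPM at day 56 and 33.9, 34.8 and 24.7 CPM at day 7 (-1.49, SE 0.18, adjusted p = 0.000177). Apoe, the lipoprotein gene of macrophages, had 404, 363 and 321 CPM at day 56 and 183, 227 and 214 CPM at day 7 (0.80, SE 0.15). Alox15, a lipoxygenase of macrophages and eosinophils, had 20.6, 23.6 and 29.8 CPM at day 56 and 144, 140.4 and 111 CPM at day 7 (-2.42, adjusted p = 0.0282); of the 6 fits that left out a WT library it was called in 1, that without day 56 library 3, the highest adjusted p being 0.107.

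Erythroid genes were lower at day 56 and formed the list with the most negative median. Of 11 tested 8 fell and 0 rose (median -2.21), and 5 fell without day 56 library 2. Slc4a1, the anion exchanger of red cell membranes, had 1.87, 3.84 and 6.84 CPM at day 56 against 45.7, 37.9 and 31.3 CPM at day 7 (-3.23, SE 0.62, adjusted p = 0.00775). Alas2, the first enzyme of heme synthesis in red cell precursors, had 5.89, 15.5 and 15.8 CPM at day 56 and 81.9, 77.6 and 76.3 CPM at day 7 (-2.67, SE 0.56), and Ahsp, a chaperone of alpha-globin, 2.15, 3.24 and 2.62 CPM at day 56 and 12.8, 9.83 and 9.31 CPM at day 7 (-1.98, SE 0.36). In each gene day 56 library 1 was the lowest of the 6. Platelet genes had 1 of 14 lower and 0 higher (median -0.07), with 0 lower without day 56 library 1, day 7 library 1 or day 7 library 2 and 3 without day 56 library 3. Of the hemoglobin symbols of the list, Hbb was among the 11 tested and is part of the erythroid counts and sums. The other 6 were not symbols of both tables and were not analysed here.

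Epithelial lists had no common direction. Of 15 alveolar type 2 genes 1 rose and 1 fell, of 15 type 1 genes 0 and 3, of 15 airway secretory genes 3 and 2, and of 18 motile cilia genes 1 and 0. With 1 WT library left out, type 2 genes had 0 to 3 higher and 0 to 3 lower (3 and 3 without day 56 library 3), type 1 genes 2 to 5 lower (5 without day 56 library 3), airway secretory genes 2 to 3 higher and 2 to 4 lower (4 without day 56 library 3), and cilia genes 0 to 3 in each direction (3 lower without day 56 library 3, 3 higher without day 7 library 1). Secretoglobins of club cells, the secretory cells of small airways, went opposite ways. Scgb1a1 had 12322, 10625 and 9356 CPM at day 56 against 5899, 5339 and 5536 CPM at day 7 (0.95, SE 0.11, adjusted p = 0.000122). Scgb3a2 had 236, 184 and 198 CPM at day 56 against 393, 385 and 395 CPM at day 7 (-0.92, SE 0.14, adjusted p = 0.001), and Scgb3a1 fell by 1.63 (SE 0.32). None of the 3 overlapped between the days. Among xenobiotic and retinoid enzymes 7 of 22 rose and 1 fell (4 rose without day 56 library 1 or day 7 library 2). Cyp2e1, a cytochrome P450 of ethanol and small solvents, had 36.5, 14.4 and 17.8 CPM at day 56 and 4.49, 5.28 and 3.81 CPM at day 7 (2.33, SE 0.34).

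Genes of the IL-6 pathway went both ways between the days. Il6 had 6, 6 and 5 raw counts at day 56 and 5, 11 and 6 at day 7, too few to pass the filter. Il6r, its receptor, had 93.0, 77.2 and 105 CPM at day 56 and 49.1, 59.3 and 57.8 CPM at day 7 (adjusted p = 0.0195), and was called in 3 of the 6 fits that left out a WT library but not without day 56 library 1, day 7 library 1 or day 7 library 3 (highest adjusted p = 0.0753). The feedback inhibitor Socs3 had 19.9, 15.2 and 16.1 CPM at day 56 and 19.0, 22.4 and 21.3 CPM at day 7, and the groups overlapped (-0.29, adjusted p = 0.199). Stat3, the transcription factor downstream, changed by -0.12 (SE 0.07, adjusted p = 0.308) and the shared receptor Il6st by -0.24 (SE 0.17, adjusted p = 0.373). Of 25 genes of the pathway 3 rose and 1 fell (median 0.05), a count near the share over all genes, with 0 higher and 0 lower without day 56 library 1 and 6 higher and 3 lower without day 56 library 3. Interferon response genes had 2 of 27 higher and 2 lower (0 to 3 in either direction with 1 WT library left out), and acute phase and complement genes 0 of 22 higher and 1 lower (7 lower without day 56 library 3). Hypoxia and glycolysis genes had 8 of 27 lower and 1 higher (median -0.26; 4 lower without day 7 library 3 and 5 without day 56 library 2 or day 7 library 2), among them the glycolytic enzyme genes Eno1 (-0.57, SE 0.08) and Ldha (-0.42, SE 0.08). All 8 lower genes had at least 1 neighbouring row that differed between the tables, and of the 16 members with unchanged rows 0 were lower and 1 higher.

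The remaining lists had calls in both directions, in 1 direction or in neither. Plasma cell genes had 2 of 9 higher and 1 lower. Metallothionein and oxidative stress genes had 0 of 15 higher and 2 lower (0 to 3 lower with 1 WT library left out). Nerve and Schwann cell genes had 2 of 9 lower and 0 higher. Skeletal muscle genes had 1 of 5 lower and 0 higher (0 to 2 lower with 1 WT library left out), and of 9 mesothelium genes 0 were called. Adipocyte genes had 2 of 12 lower and 0 higher (median -1.03), and mast cell and eosinophil genes 1 of 9 lower and 1 higher (median -0.43; 0 to 3 lower with 1 WT library left out, 3 without day 56 library 3). Chemokine genes had 4 of 28 higher and 2 lower, MHC class II genes 2 of 12 higher and 1 lower, and checkpoint receptor genes 3 of 12 higher and 0 lower (median 0.44). Angiogenic ligand genes had 2 of 18 higher and 1 lower, and nuclear genes of the mitochondrial respiratory chain 1 of 34 higher and 1 lower (median 0.10). Without day 56 library 3 the higher members numbered 11 for the respiratory chain, 6 for chemokines and 4 for angiogenic ligands, and without day 7 library 1 or 2 they numbered 2 for chemokines and 1 for checkpoint receptors. Chemokines also had 2 higher without day 56 library 1, and checkpoint receptors 1 higher without day 56 library 2.

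Markers of tissue beside the lung moved between single libraries. The 15 heart muscle genes tested, which pulmonary vein sleeves also express in rats, summed to 65.9, 149 and 497 CPM at day 56 and 689, 757 and 479 CPM at day 7, so day 56 library 3 lay within the day 7 range and libraries 1 and 2 below it. The median change was -1.42, with 2 genes lower and 0 higher, 13 lower without day 56 library 3 and 1 without any other WT library. The count also moved with the method: 10 of 15 were lower by limma-voom, 3 by DESeq2 and 0 of 14 with the 6 WT libraries alone. Actc1, cardiac actin, had 35.3, 31.1 and 95.3 CPM at day 56 and 194, 203 and 151 CPM at day 7 (-1.77, SE 0.38, adjusted p = 0.0119). The 18 clock genes summed to 783, 884 and 1593 CPM at day 56 and 698, 590.4 and 656 CPM at day 7, again with library 3 apart. Nr1d1, a clock repressor whose level swings over the day, had 16.1, 45.4 and 204 CPM at day 56 and 5.99, 7.60 and 24.3 CPM at day 7 and was not called (adjusted p = 0.135). Immediate early genes, which respond within minutes to handling, had 3 of 22 higher and 0 lower (1 higher without day 56 library 1 or 2 or day 7 library 1 or 2, 5 without day 56 library 3), and summed to 2915, 2177 and 1681 CPM at day 56 and 1349, 1298 and 1533 CPM at day 7. The part of heart tissue, hour of collection or handling in the other results was not tested. Without day 56 library 3 the counts were 22 of 23 mitosis genes lower, 18 of 20 fibrillar matrix genes lower, 6 of 12 arterial genes higher and 11 of 15 cytotoxic genes higher.

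**Figure D3:**
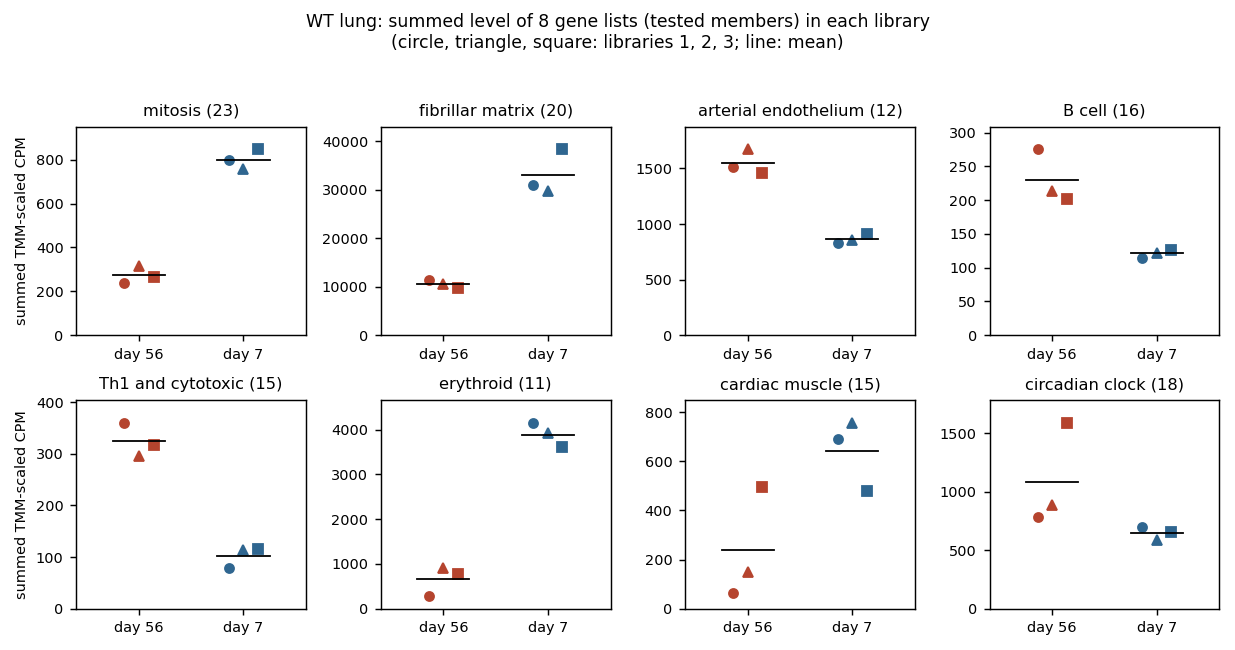
Summed TMM-scaled CPM of the tested members of 8 lists in each WT library, day 56 left and day 7 right, from 0; circles, triangles and squares are libraries 1, 2 and 3 and lines are means. Mitosis, matrix, arterial, B cell, cytotoxic and erythroid sums do not overlap between the days, while day 56 library 3 (square) lies with the day 7 libraries for cardiac muscle and above all others for clock genes.

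Most of the largest changes fell on symbols whose place differs between the tables. For each symbol the 2 rows before and the 2 after it were compared between the tables, a check added after the data were seen. Among 167 tested genes with none of these 4 rows the same, 117 were called and 84 of the called (50.3% of the 167) changed by over 3 on the log2 scale. Among 4062 with at least 1 different row 674 were called (16.6%), and 2.86% of the 4062 were called with a change over 3. Among 9746 with all 4 the same 1288 were called (13.2%), and 0.174% were called with a change over 3. All 57 dropped symbols had at least 1 different row.

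The genes with the largest changes by the naming rule show this. Of the 15 largest rises 12 had none of the 4 rows the same and 2 had all 4, and of the 15 largest falls 9 had none and 3 all 4. Slc25a51, a mitochondrial carrier, had 107, 110.0 and 101 CPM at day 56 and 14.3, 7.19 and 6.25 CPM at day 7, and Mcart1, which RefSeq lists as a synonym of the same gene, had 2.70, 4.82 and 7.64 CPM at day 56 and 94.8, 97.6 and 92.0 CPM at day 7. Their sums were 109.2, 114.8 and 108.7 CPM at day 56 and 109.1, 104.8 and 98.2 CPM at day 7, so the sums overlapped between the days. Wbp11 and its RefSeq synonym Wbp11l1, a splicing factor gene, summed to 76.1, 75.9 and 63.2 CPM at day 56 and 75.2, 75.3 and 76.8 CPM at day 7, with Wbp11l1 high at day 56 (73.5, 70.8 and 63.2 CPM) and Wbp11 high at day 7 (75.1, 74.5 and 68.9 CPM). Hsp90aa1, a chaperone gene of nearly all cells, had 0 counts in the 3 day 56 libraries and 724, 756 and 529 CPM at day 7, and none of the rows around it was the same. Actg1, cytoplasmic actin, had 2061, 2155 and 1653 CPM at day 56 and 98.8, 92.8 and 244 CPM at day 7, again with none the same. Il13ra1, an IL-13 receptor chain (6.83), Hmgb1, a chromatin protein (-3.23), and Ewsr1, an RNA-binding protein gene (-3.28), had none the same either.

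**Figure D4:**
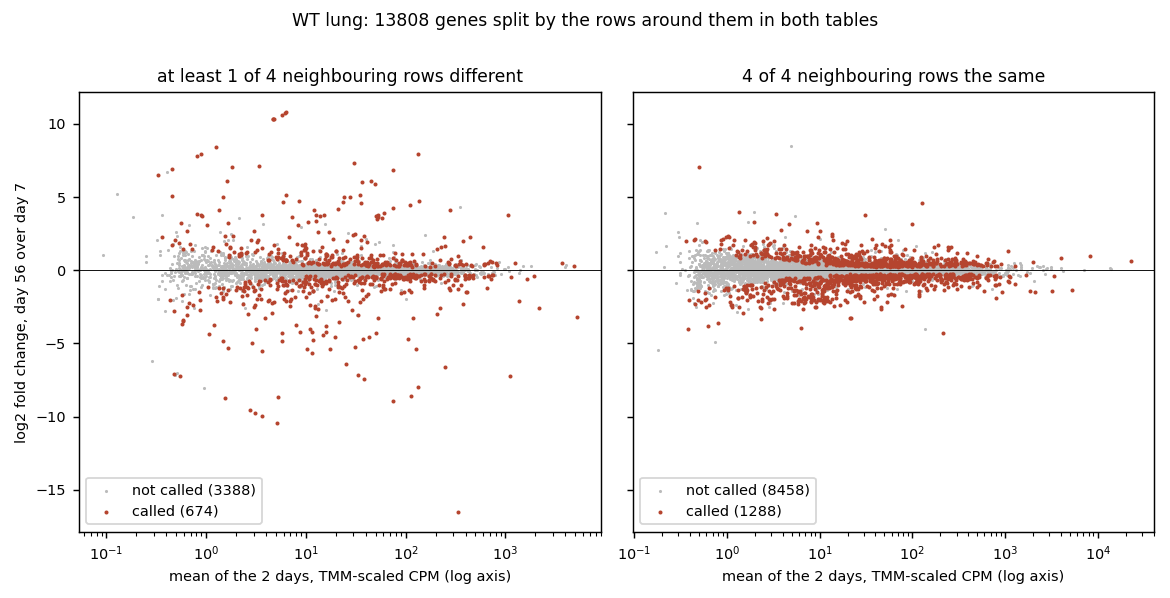
Log2 fold change of day 56 over day 7 against the mean level of the 2 days (log axis) for 13808 genes, split by whether at least 1 of the 4 neighbouring rows differs between the tables (left, 4062 genes) or all 4 are the same (right, 9746 genes); red points were called. Changes over 3 in either direction are 2.86% of the genes at left, counting called genes only, and 0.174% of those at right.

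Within the 9746 genes with unchanged rows, the largest changes were of other genes. Unchanged rows do not show that a symbol was counted in the same way on both days. Ntrk2, the receptor of brain-derived neurotrophic factor, had 34.2, 17.8 and 9.96 CPM at day 56 against 446, 405 and 368 CPM at day 7 (-4.29, SE 0.38, adjusted p = 3.41e-05), and Lypd1 had 5.94, 2.92 and 3.56 CPM at day 56 against 44.8, 40.7 and 33.9 CPM at day 7 (-3.26, SE 0.24, adjusted p = 2.77e-06). Both were far lower in every day 56 library. Myh9, the heavy chain of non-muscle myosin, had 382, 252 and 94.0 CPM at day 56 against 3.85, 13.3 and 12.7 CPM at day 7 (4.59, SE 0.91, adjusted p = 0.0112), with library 1 the highest and library 3 the lowest of the day 56 libraries. In IL6KO lung its change was 1.06 (adjusted p = 0.51). With Esm1 and Dll4 it was among the 3 largest rises of these genes that were called in all 6 fits with a WT library left out. List counts over the unchanged rows alone were 16 of 16 mitosis genes lower, 13 of 14 fibrillar matrix genes lower, 5 of 9 arterial genes higher and 10 of 14 cytotoxic genes higher, and B cell genes had 8 of 11 higher. Counts of other lists were smaller there: hypoxia and glycolysis genes had 0 of 16 lower against 8 of 27 over all rows, T cell identity genes 2 of 9 higher against 7 of 17, vascular signaling genes 4 of 23 higher and 1 lower against 6 of 32 and 4, and capillary genes 1 of 9 higher and 1 lower against 3 of 15 and 4. NK cell genes had 4 of 5 higher over the unchanged rows, against 10 of 13 over all rows. Of the genes described above with their values, Eln and Cdk1 were among those with different rows, with 2 of the 4 the same. The rows around the other genes described above are not given for each. Cytosolic ribosomal protein genes had 35 of 56 higher and 1 lower (median 0.41), with 17 to 47 higher when 1 WT library was left out (17, 19, 21 and 22 without day 7 library 1, day 56 library 1, day 56 library 2 and day 7 library 2). Their changes ran from 0.14 to 1.22 over the 39 members with unchanged rows and from -3.02 to 2.44 over the other 17.

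The same day comparison in IL6KO lung, fitted with the same 2 tables but other animals, called 1069 genes (7.74%), 428 higher (3.1%) and 641 lower (4.64%) at day 56. Of the 1069, 784 were called in the same direction in WT, which is 40.0% of the WT calls and 73.3% of the IL6KO calls, and 3 in the opposite one. Both comparisons carry the same difference between tables; over the genes with unchanged rows the shares were 36.5% and 71.1%. Medians in IL6KO lung were -1.49 for mitosis genes (22 of 23 lower), -1.02 for fibrillar matrix genes (17 of 20 lower) and -1.78 for erythroid genes. For lymphocyte lists they were 0.36 for Th1 and cytotoxic genes (1 of 15 higher), 0.35 for NK cell genes (2 of 13), 0.38 for B cell genes (2 of 16) and 0.12 for T cell identity genes (0 of 17), and for ribosomal protein genes -0.0019. Summed Th1 and cytotoxic levels at day 7 were 78.1 to 115 CPM in WT and 210 to 247 CPM in IL6KO lung. At day 56 they were 297 to 360 CPM in WT and 219 to 373 CPM in IL6KO lung. NK cell sums at day 7 were 61.5 to 87.2 CPM in WT and 138 to 174 CPM in IL6KO lung, and overlapped at day 56. B cell and T cell identity sums of the genotypes overlapped on both days. These levels were not tested between genotypes. Ccl5 changed by 1.77 in WT lung and 0.27 in IL6KO lung. Gzma changed by 2.06 in WT lung and 0.55 in IL6KO lung, and Dll4 by 3.16 in WT lung and 2.48 in IL6KO lung. The test of these differences, the genotype by day interaction, called 0 of 13808 genes by edgeR, with 1039 (7.52%) at an unadjusted p under 0.05, 45 by DESeq2 and 575 by edgeR without WT day 56 library 3. No gene is therefore shown by edgeR on all 12 libraries to differ in its day change between the genotypes.

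**Figure D5:**
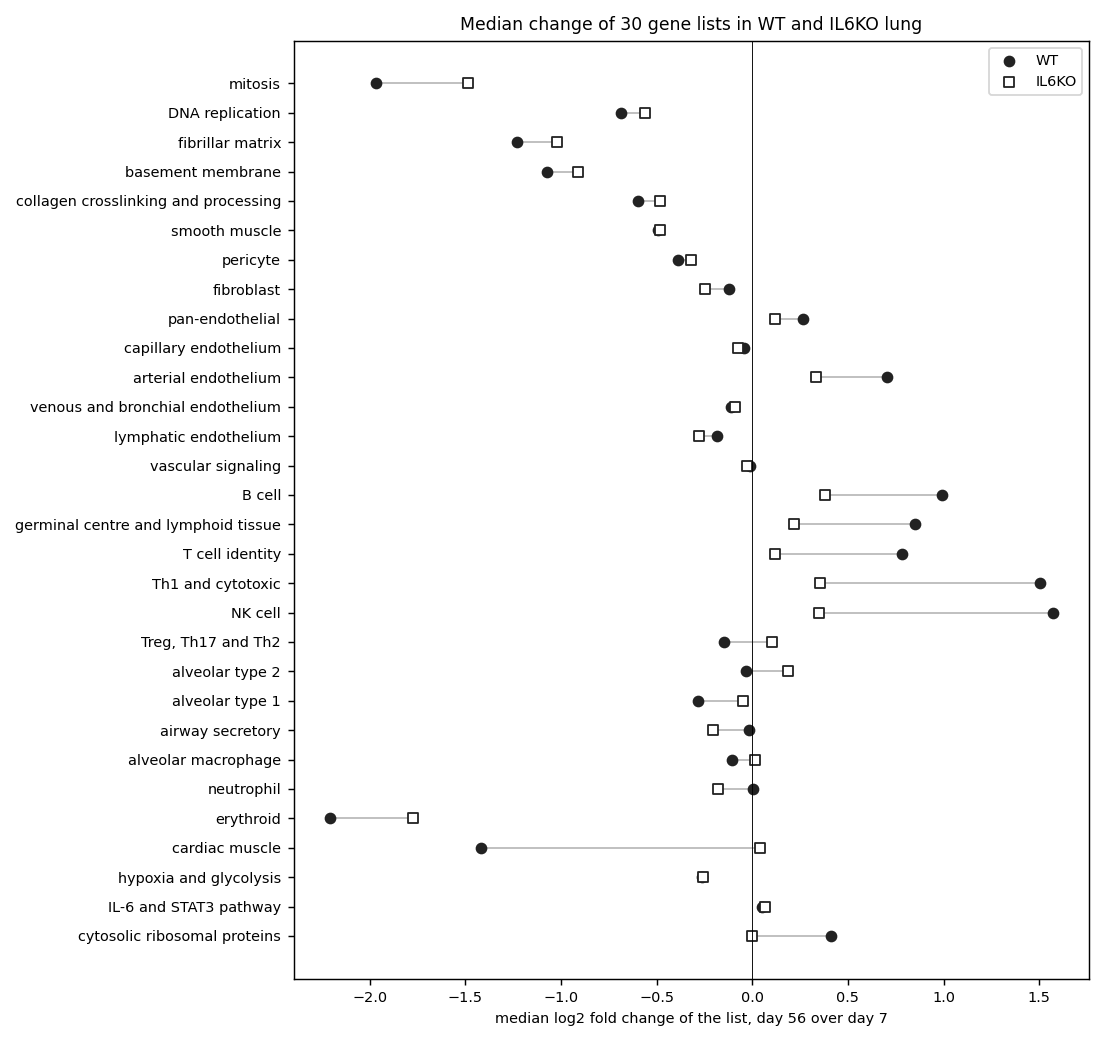
Median log2 fold change of day 56 over day 7 for 30 lists in WT lung (filled circles) and IL6KO lung (open squares). Mitosis, matrix and erythroid medians are negative in both genotypes, and the medians of Th1 and cytotoxic genes are 1.50 in WT and 0.36 in IL6KO lung.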

How the data were processed

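Whole-lung RNA was sequenced, per the labels' protocols after Trizol extraction and a column kit with DNase, as Illumina libraries. The authors deposited raw counts per gene, 1 column per sample, named as total counts per the file headers. Per the submitters' processing notes the build was GRCm38, a mouse build named for these rat samples too; the aligner, counter, strand setting and annotation were not given in the sources used here. Row order and symbols differ between the tables of the 2 days.

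The 12 lung libraries were fitted with 4 group means in edgeR 4.0.16 (filterByExpr, TMM, glmQLFit and glmQLFTest, robust; R 4.3.3). All 13808 genes shared 1 Benjamini-Hochberg adjustment. The members, the gene lists, the tests and the naming rule were chosen with earlier results of these data known. Named were the 15 largest called changes per direction with at least 1 CPM in both groups and no overlap, 5 per direction near absent in one table, up to 4 genes per list by smallest p, and fixed genes; the same 15 among genes with unchanged rows were added after the data were seen. Lists were counted, not tested. A gene that the rule names is not reported here, and the counts include it. WT libraries of the 2 days share replicate numbers, and the labels do not say whether same-numbered libraries were matched. Their deviations correlated at -0.05, -0.05 and -0.09, which gave no reason to pair them but cannot show that they were not matched. Replicates differed by more than sampling noise, with a chi-square per gene of 8.6 or more. Alternatives were RLE factors, no filter, a mean of at least 5 CPM, DESeq2 1.42.0, limma-voom (limma 3.58.1), the 6 WT libraries alone, no or a stricter drop, a log2 fold change of at least 1, a replicate block, unchanged rows only, and each library left out. The fit was also run on simulated counts. These held no difference between the tables and no library set apart, so that run cannot speak to either. A bound of 3 counts covers counting error only. Promoters came from RefSeq (GRCr8), matched by symbol for 10485 of 13808 genes. Figures were drawn with matplotlib 3.10.9.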

Additional observations from a re-analysis of the deposited data

How the results depend on the processing

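The count of 1962 genes called between the days stayed within 1.5 times under RLE factors (1966), no filter (1843), at least 5 CPM (1647), DESeq2 (2543), limma-voom (2039), the 6 WT libraries alone (1378), no drop (2048) and a stricter drop (1948). It was 707 with a log2 fold change of at least 1, which is a stricter call, and 1290 over symbols with unchanged neighbouring rows, where fewer genes were tested. Leaving out 1 WT library gave 1155 to 3594, the highest without day 56 library 3 and 1238, 1155 and 1228 without day 56 library 1, day 7 library 2 and day 7 library 3; the cause was not tested. For the interaction, DESeq2 called 45, edgeR 0 to 575 with 1 library left out (575 without WT day 56 library 3), and 0 under the other settings run. Bmpr2 ran from -0.0538 (without day 56 library 3) to 0.41 (without day 56 library 2), neither called. Replicate numbers were not used to pair these samples in the main fit. The fit with the replicate block called 1615. Of the 206 named genes with a test, RLE kept 205 on their side of the threshold, limma-voom 199, the 6 WT libraries 176 and the fits without 1 WT library 162 to 198. Genes at a few CPM are limited by depth.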
